A study of Mus musculus with 35 samples.

Results

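Mitochondrial fatty acid oxidation is represented here by 34 genes out of the 55421 in the count table, measured in the interscapular brown adipose tissue (iBAT) of 35 mice. The rule took genes by symbol for their place in the pathway and used no measured value, and each symbol matched 1 row of the table. All mice were C57BL/6J males of 9 to 10 weeks on standard chow. The 5 controls stayed at the colony temperature of 24 °C (room temperature, RT), and 5 mice each were kept at 6 °C for 6 hours or for 1, 2, 3, 4 or 5 days. Cold-exposed mice sat alone in static cages of an incubator and had no nesting material, so housing and temperature cannot be told apart as sources of a difference. One trimmed iBAT pad per mouse gave its own library with a kit that reads the 3' end of polyadenylated RNA, so that a count does not grow with transcript length. Levels are given as CPM, the counts relative to library size after scaling by TMM, an edgeR factor for library composition. In whole tissue, fewer cells of a type and less RNA per cell cannot be told apart.

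Brown adipocytes burn fatty acids to make heat, and most of that oxidation takes place inside mitochondria. A fatty acid is first joined to coenzyme A by a synthetase, passed to carnitine by carnitine palmitoyltransferase 1 on the outer membrane, carried across, and returned to coenzyme A by carnitine palmitoyltransferase 2. The chain is then shortened in repeated rounds of dehydrogenation, hydration, dehydrogenation and thiolysis, with enzymes that differ in the chain length they accept. Electrons from the acyl-CoA dehydrogenases reach the respiratory chain through electron transfer flavoprotein and its dehydrogenase. Propionyl-CoA, left from odd chains and from some amino acids, is converted by a carboxylase and an epimerase into material for the citric acid cycle. Malonyl-CoA, the building unit of fatty acid synthesis, inhibits carnitine palmitoyltransferase 1.

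The libraries held 3846016 to 6047247 counts each, and 1 read was worth 0.26 CPM in the smallest library. Genes of the mitochondrial genome took 38.4% to 41.3% of the counts in controls, 41.5% to 42.6% after 6 hours, without overlap, and 33.6% to 46.2% over all mice, and their part in the scaling was not tested. All 8 brown adipocyte markers checked (among them Ucp1, the uncoupling protein of brown fat) had counts in every group. Their summed level was 13767 to 17307 CPM in controls, 18535 to 24627 CPM after 6 hours and 17368 to 22273 CPM after 5 days, both above all controls. The rise of the sum after 6 hours was not shared by the list as a whole. By the calls defined in the next paragraph, 1 of these 8 was higher at that time, 1 lower and 6 not called. The median log2 fold change of the 8 was 0.005 there, with single values from -0.40 to 1.90. By the same calls, 1 of the 8 was higher and 3 were lower after 1 day, and 3 higher and 1 lower after 5 days. Markers of other cell types moved over the same days. Of 6 macrophage markers, 5 were tested at 6 hours, with 0 higher, and 6 at 3 days, with 4 higher. Their summed level was 58.5 to 133 CPM in controls and 111 to 254 CPM after 3 days. Of 5 endothelial markers, 4 were called higher after 1 day (307 to 365 CPM in controls, 558 to 659 CPM after 1 day), and 0 after 5 days. Of 8 skeletal muscle markers, 4 were called lower after 5 days, with summed levels of 72.1 to 933 CPM in controls and 155 to 267 CPM after 5 days. Of 5 stromal markers, 4 were called lower after 1 day (495 to 731 CPM in controls, 339 to 450.4 CPM after 1 day), and 1 after 5 days. Of 5 erythroid markers, 3 were called higher after 6 hours, 4 after 1 day and 3 after 5 days, with summed levels of 1803 to 2316 CPM in controls and 2709 to 4980 CPM after 5 days. No marker of these lists was at 0 in every mouse of a group, and their part in the results on the members was not tested. Of the 86 calls of markers in the 7 comparisons made, 20 were lost when libraries were scaled by size only. In at least 1 fit without 1 mouse, 23 were lost. Replicate 1 of cold 2 days stood apart from its group in many members, with a summed level over the 34 members of 11459 CPM against 14041 to 17546 CPM in the other 4 mice.

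Each duration of cold was compared with the same 5 RT mice in a fit of its own, and a gene was called when its Benjamini-Hochberg adjusted p in edgeR's quasi-likelihood test was below 0.05. Members went in both directions at every duration, and the share called higher grew from 4 days on. After 6 hours, 8 of the 33 members tested were called higher and 8 lower, beside 21.5% and 21.0% of all genes tested. After 1 day, 8 were called higher and 10 lower, beside 18.9% and 17.8% of all genes. After 2 days, 7 were called higher and 7 lower (all genes: 16.4% and 14.7%). After 3 days, 9 were called higher and 8 lower (all genes: 18.3% and 15.5%). After 4 days, 15 were called higher and 8 lower (all genes: 19.4% and 18.6%). After 5 days, 16 were called higher and 7 lower (all genes: 20.2% and 18.6%). As shares of the 33 members, 24.2% were thus higher after 6 hours and 48.5% after 5 days, and 24.2% and 21.2% were lower. The number higher after 2 days rested on 1 mouse: without replicate 1 of that group, 12 members were called higher in place of 7.

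The median log2 fold change of the 33 members was -0.13 after 6 hours, when the median of all genes was -0.03, and 0.35 after 5 days, when that of all genes was -0.02. Leaving out the TMM factors and scaling by library size only shifted the median of all genes to -0.21 after 6 hours and to -0.25 after 5 days, and that of the members to -0.33 and 0.11. Under that scaling, 6 members were called higher and 16 lower after 6 hours (all genes: 1342 higher, 3399 lower, against 2280 and 2225 with TMM), and 10 higher and 9 lower after 5 days (all genes: 1194 and 3347, against 2167 and 1998 with TMM). No called value of a member, in any comparison, changed sign under this or any other alternative tried. The smallest called value was -0.28 (Etfb after 4 days), larger in size than any median of all genes under library size only. A sign change under that scaling was thus unlikely from the start, and it lost 19 of the 134 calls. The directions of single members below are given as called. The summed level has no such direction: it was 14687 ± 880.1 CPM (SD, n = 5) in controls and 16772 ± 1348 CPM (SD, n = 5) after 5 days with TMM, but 16620 and 15891 CPM with library size only.

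**Figure D1:**
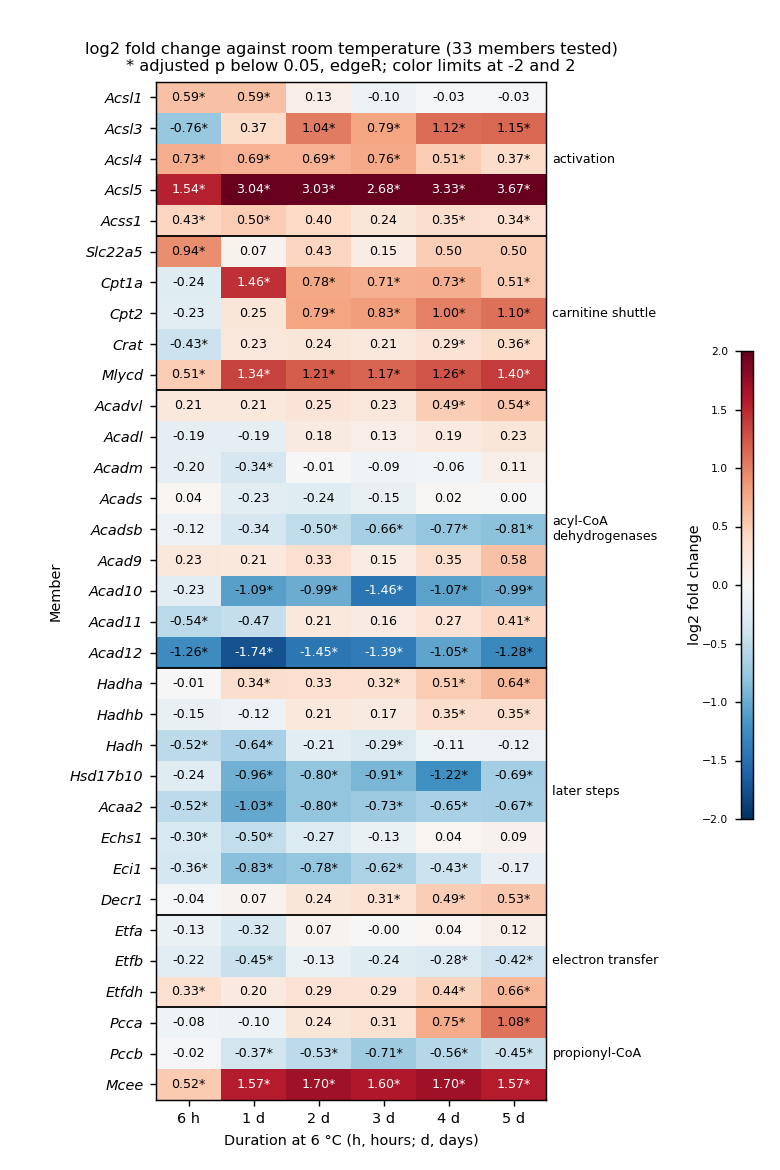
Heatmap of the log2 fold change of the 33 members tested (rows, by role) at each duration of cold against room temperature (columns), 5 mice against 5, with stars on values called by edgeR at an adjusted p below 0.05. Acsl5 reached 3.67 and Acad12 fell to -1.74, the largest values in each direction, and of the 87 values without a star, 28 changed sign under at least 1 alternative.

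**Figure D2:**
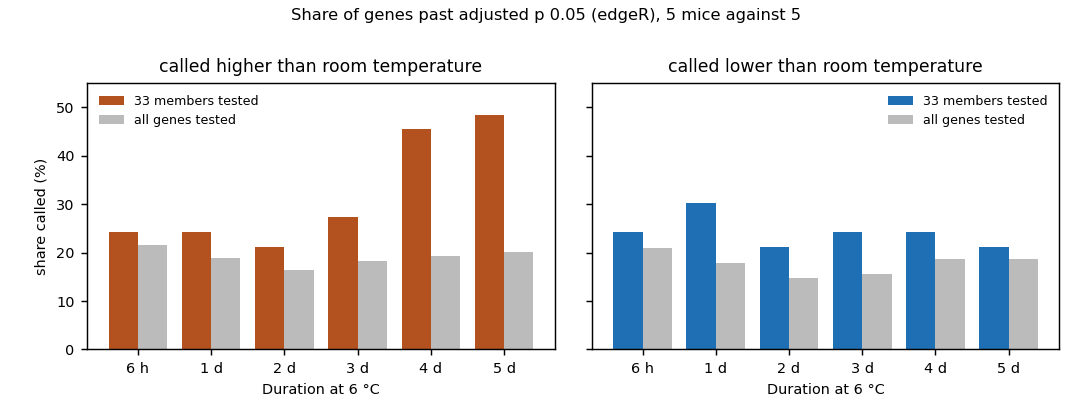
Share of the 33 members tested (colored bars) and of all genes tested (gray bars) that edgeR called higher (left) or lower (right) than room temperature, in percent, by duration of cold. The member bars for higher calls stand at 24.2% after 6 hours and 48.5% after 5 days, and those for lower calls between 21.2% and 30.3%.

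Over the 6 comparisons with RT, 15 members were called higher at 1 duration or more and never lower, 11 lower and never higher, 3 in both directions (Acsl3, Crat and Acad11), and 4 in none (Acadl, Acads, Acad9 and Etfa). The shares of all genes above hold for single durations. All genes were not counted over the 6 comparisons together, so these pooled counts have no share to stand beside. Acsl4, Acsl5, Mlycd and Mcee were higher, and Acad12 and Acaa2 lower, at all 6 durations. The remaining member, Cpt1b, had too few counts to be tested. Because Acsl5, Mcee, Mlycd and Acad12 were called at all 6 durations and changed most among these, the 250 bases upstream of their RefSeq start sites (build GRCm38.p6) are shown, 5′ to 3′ on the strand of the gene. The same stretch is shown for Hadhb because it is shared with Hadha, which is read in the opposite direction and encodes the partner subunit of the same enzyme. Capitals mark the GC box GGGCGG on either strand, and no other motif searched lay in these windows. The windows are chr19:55253119-55253368 (plus strand) for Acsl5, chr7:64392372-64392621 (plus strand) for Mcee, chr8:119394644-119394893 (plus strand) for Mlycd, chr5:121618939-121619188 (minus strand) for Acad12 and chr5:30155003-30155252 (plus strand) for Hadhb.
Acsl5: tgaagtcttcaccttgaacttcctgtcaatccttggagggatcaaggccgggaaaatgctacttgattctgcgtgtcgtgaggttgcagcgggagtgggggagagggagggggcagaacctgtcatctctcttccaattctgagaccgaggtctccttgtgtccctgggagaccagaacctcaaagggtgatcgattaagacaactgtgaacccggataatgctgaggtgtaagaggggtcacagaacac
Mcee: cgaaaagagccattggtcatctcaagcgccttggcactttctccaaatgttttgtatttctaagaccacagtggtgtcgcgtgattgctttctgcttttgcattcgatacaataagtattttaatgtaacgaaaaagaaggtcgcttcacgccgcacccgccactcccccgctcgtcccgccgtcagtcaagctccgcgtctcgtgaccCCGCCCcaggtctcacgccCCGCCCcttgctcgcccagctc
Mlycd: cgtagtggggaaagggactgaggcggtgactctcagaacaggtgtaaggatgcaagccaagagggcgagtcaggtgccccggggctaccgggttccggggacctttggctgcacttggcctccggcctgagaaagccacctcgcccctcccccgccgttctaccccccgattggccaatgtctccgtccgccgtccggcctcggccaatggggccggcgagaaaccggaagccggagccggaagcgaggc
Acad12: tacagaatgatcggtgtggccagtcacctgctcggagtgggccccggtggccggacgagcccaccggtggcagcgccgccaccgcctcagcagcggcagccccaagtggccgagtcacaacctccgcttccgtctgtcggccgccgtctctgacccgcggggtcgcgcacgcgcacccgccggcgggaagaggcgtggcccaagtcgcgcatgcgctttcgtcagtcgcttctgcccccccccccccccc
Hadhb: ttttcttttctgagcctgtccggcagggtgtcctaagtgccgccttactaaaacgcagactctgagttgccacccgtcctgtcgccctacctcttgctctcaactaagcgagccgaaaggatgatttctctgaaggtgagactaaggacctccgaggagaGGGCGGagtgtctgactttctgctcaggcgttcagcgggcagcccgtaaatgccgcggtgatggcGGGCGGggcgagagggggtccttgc

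A promoter entry was found for 29 of the 34 members, with 31 windows in all. The GC box lay in 19 of the 31 windows, and in 32.7% of 32851 windows of all genes. Neither the CRE (TGACGTCA, in 1.55% of all windows), nor the ERR element (TCAAGGTCA, 0.387%), nor the DR1 element (AGGTCA repeated in the same direction with 1 base between, 0.0335%) had a match in a member. The hexamer AGGTCA, which both of the latter contain, was in 5 member windows (Acadm, Acadvl, Cpt1a, Echs1 and Pcca) and in 14% of all windows. Of the members shown here, Mcee and Hadhb each held 2 GC boxes and Acsl5, Mlycd and Acad12 held 0. All motifs were searched on both strands, and a match or its absence in these letters says nothing of binding. The RefSeq start sites of Hadha and Hadhb lie 272 bases apart, and 228 bases upstream of these sites belong to both windows. In GENCODE M21 the Hadha gene reaches to 30155162, inside the shared stretch, and Hadhb begins at 30155248. By that annotation, part of the stretch is thus not upstream of Hadha. The Acsl5 gene begins at 55251938 there, so its whole window lies inside the annotated gene and not upstream of it. Mcee (from 64392607), Mlycd (from 119394878) and Hadhb begin within the last bases of their windows.

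The activation of fatty acids, by synthetases that attach coenzyme A, was led by Acsl5. Of the 5 members in this role, 4 were called higher and 1 lower after 6 hours (all genes: 21.5% and 21.0%). After 5 days, 4 were called higher and 0 lower (all genes: 20.2% and 18.6%). Acsl5, a long-chain synthetase of the endoplasmic reticulum and mitochondria, had 84.3, 28.4, 56.8, 46.0 and 32.9 CPM in the 5 RT mice. It had 96.2, 87.6, 240.5, 136 and 173 CPM after 6 hours and 330.4, 539, 535, 316 and 337 CPM after 1 day. After 5 days it had 635, 409.7, 752, 775 and 629 CPM. The lowest cold mouse, at 6 hours, lay just above the highest control, and from 1 day on every mouse had at least 246 CPM. Its log2 fold change was 1.54 ± 0.28 (SE) after 6 hours (edgeR adjusted p = 0.000248), 3.04 ± 0.26 (SE) after 1 day (adjusted p = 2.21e-07) and 3.67 ± 0.25 (SE) after 5 days (adjusted p = 5.06e-09), a 12.7-fold higher level. On the opposite strand, 404 exon bases of Acsl5 overlap Zdhhc6.

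Acsl1, the main long-chain synthetase of adipocytes, took another course. RT mice had 1802, 1606, 1574, 1407 and 1082 CPM, and the mice after 6 hours had 2379, 2516, 1951, 2334 and 2314 CPM. After 1 day the values were 2458, 2205, 2137, 2396 and 2186 CPM, and after 5 days 1475, 1583, 1651, 1451 and 1273 CPM. Every mouse at 6 hours and 1 day was above every control, and the values after 2 to 5 days overlapped with those of controls. Its log2 fold change was 0.59 ± 0.12 (SE) after 6 hours (edgeR adjusted p = 0.000616) and 0.59 ± 0.12 (SE) after 1 day (adjusted p = 0.00114), and Acsl1 was not called later. Between 5 days and 6 hours of cold it fell by 0.62 ± 0.11 (SE) on the log2 scale (edgeR adjusted p = 0.000122). The ratio of Acsl5 to Acsl1 CPM within a mouse was 0.018 to 0.047 in controls, 0.132 to 0.250 after 1 day and 0.259 to 0.534 after 5 days.

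Acsl3, a synthetase found on lipid droplets, was lower early and higher late. RT mice had 32.4, 24.4, 25.1, 24.0 and 21.4 CPM, the 6 hour mice 15.6, 13.0, 17.0, 16.8 and 14.2 CPM, and the 5 day mice 51.0, 52.5, 95.8, 50.7 and 37.6 CPM. All 6 hour mice were below and all 5 day mice above the whole control range, and replicate 3 of cold 5 days was far above its group. In log2 terms Acsl3 changed by -0.76 ± 0.13 (SE) after 6 hours (edgeR adjusted p = 0.000196), 1.04 ± 0.12 (SE) after 2 days (adjusted p = 8.71e-06) and 1.15 ± 0.20 (SE) after 5 days (adjusted p = 0.000168). Acsl4, which prefers arachidonic acid, was 14.6 to 18.7 CPM in controls and 19.8 to 37.0 CPM after 6 hours, and all 6 log2 fold changes, between 0.37 after 5 days and 0.76 after 3 days, were called. The last of these calls was lost without cold 5 days replicate 5 or RT replicate 4 or 5 (adjusted p 0.0554 to 0.0633). Acss1, which activates acetate in mitochondria, was called higher, at log2 fold changes below 1, after 6 hours (0.43), 1 day (0.50), 4 days (0.35) and 5 days (0.34). The call after 4 days was lost without cold 4 days replicate 4 or 5 or RT replicate 1, 3 or 4 (adjusted p 0.0673 to 0.111), and the call after 5 days without cold 5 days replicate 2, 3, 4 or 5 or RT replicate 1, 3 or 4 (adjusted p 0.0509 to 0.106). With library size only, the calls of Acss1 at all 4 durations and of Acsl4 after 4 and 5 days were lost.

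**Figure D3:**
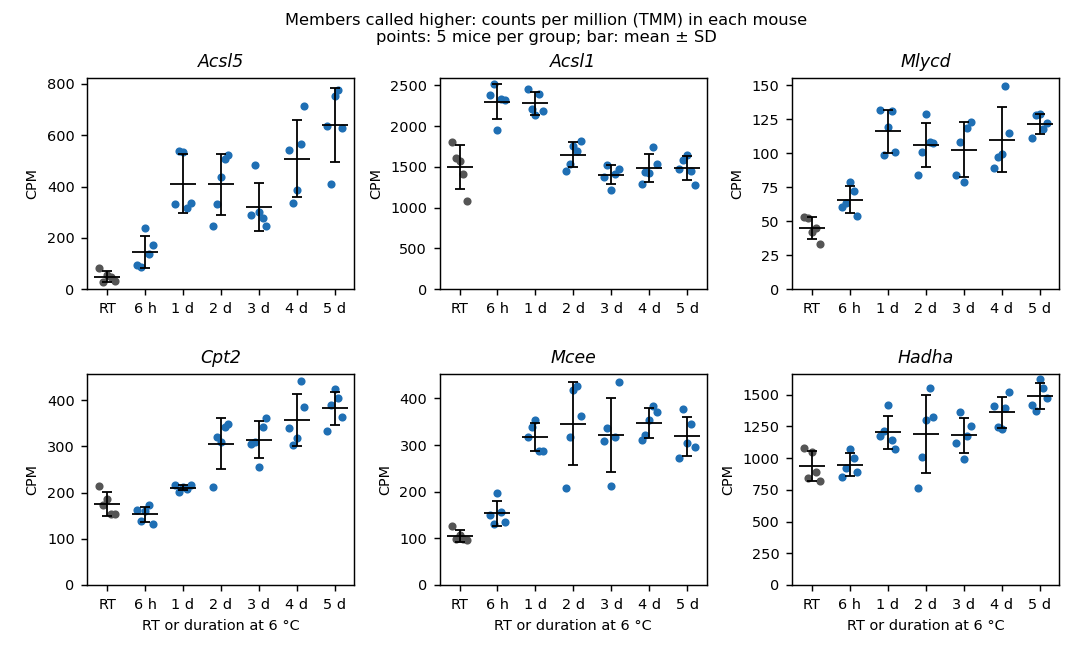
CPM (TMM) of 6 members called higher in cold, by group (RT, room temperature; h, hours; d, days), with 1 point per mouse and the mean ± SD as bars. Acsl5, Mlycd and Mcee step up by 1 day and stay up, Cpt2 and Hadha are highest after 5 days, and Acsl1 is up at 6 hours and 1 day and overlaps with the controls after that, with 1 mouse after 2 days just above them.

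In the carnitine shuttle, 2 of 5 members tested were called higher and 1 lower after 6 hours (all genes: 21.5% and 21.0%). After 5 days, 4 were called higher and 0 lower (all genes: 20.2% and 18.6%). Cpt2, the inner membrane transferase that hands the acyl group back to coenzyme A, had 214, 173, 185, 153 and 153 CPM in RT mice and 162, 139, 160.0, 172 and 131 CPM after 6 hours. It had 213, 319.9, 309, 341 and 348 CPM after 2 days and 333, 389, 425, 404 and 364 CPM after 5 days. Controls and 6 hour mice overlapped, all 5 day mice were above every control, and replicate 1 of cold 2 days alone lay within the control range at 2 days. Cpt2 had a log2 fold change of 0.79 ± 0.14 (SE) after 2 days (edgeR adjusted p = 0.000543), 0.83 ± 0.12 (SE) after 3 days (adjusted p = 5.48e-05), 1.00 ± 0.12 (SE) after 4 days (adjusted p = 6.8e-06) and 1.10 ± 0.11 (SE) after 5 days (adjusted p = 6.21e-07). Cpt2 was not called after 6 hours or 1 day.

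Cpt1a, the liver isoform of the outer membrane transferase, was low throughout. RT mice had 8.58, 7.82, 5.89, 8.48 and 5.03 CPM, 6 hour mice 4.17, 7.20, 3.80, 10.4 and 5.46 CPM, and 1 day mice 20.2, 19.4, 15.5, 16.3 and 29.0 CPM. After 5 days the values were 11.2, 11.7, 11.0, 7.83 and 10.3 CPM. Every 1 day mouse was above every control, and the other durations overlapped with controls. The log2 fold change was 1.46 ± 0.20 (SE) after 1 day (edgeR adjusted p = 2.83e-05), and this call held in all 10 fits without 1 mouse. Later values were smaller: 0.78 ± 0.24 (SE) after 2 days (adjusted p = 0.0235), 0.71 ± 0.26 (SE) after 3 days (adjusted p = 0.0473), 0.73 ± 0.24 (SE) after 4 days (adjusted p = 0.022) and 0.51 ± 0.20 (SE) after 5 days (adjusted p = 0.0485). The call at 2 days was lost without cold 2 days replicate 1 or RT replicate 3 or 5 (adjusted p 0.0587 to 0.0776). That at 3 days was lost without cold 3 days replicate 1, 3 or 4 or RT replicate 2, 3, 4 or 5 (adjusted p 0.0528 to 0.149), that at 4 days without cold 4 days replicate 2 or RT replicate 3 or 5 (adjusted p 0.0503 to 0.0606), and that at 5 days without cold 5 days replicate 1, 2, 3 or 5 or RT replicate 2, 3, 4 or 5 (adjusted p 0.0505 to 0.125). With library size only, all 4 of these later calls were lost.

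Cpt1b, the muscle isoform, is known as the main form in brown adipocytes, but it had 44 counts in the 35 libraries together and 7 at most in 1 library (replicate 4 of RT). It was left out of the fits by the filter on counts, and a fit without that filter gave log2 fold changes of -1.33 to 0.90 in the 7 comparisons, with no call. Exact two-sided permutation tests over all splits of 5 against 5 mice gave p between 0.270 and 1 in the 7 comparisons, where the smallest p possible was 0.00794. Its annotated exons, including the 3' end, share 2744 bases on the same strand with the readthrough gene Gm44502, which had 0 counts. How the counting treated reads in such shared exons cannot be seen from the table, so the low count cannot be read as a low level of Cpt1b.

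Mlycd, malonyl-CoA decarboxylase, which removes the inhibitor of carnitine palmitoyltransferase 1, was higher at every duration. RT mice had 53.4, 52.2, 42.4, 45.3 and 33.1 CPM and 6 hour mice 60.2, 63.6, 79.1, 72.0 and 53.7 CPM. After 1 day they had 132, 99.0, 119, 131 and 101 CPM, and after 5 days 111, 128, 129, 118 and 122 CPM. No cold mouse of any duration was as low as the highest control. Its log2 fold change was 0.51 ± 0.13 (SE) after 6 hours (edgeR adjusted p = 0.0052), 1.34 ± 0.14 (SE) after 1 day (adjusted p = 1.39e-06) and 1.40 ± 0.12 (SE) after 5 days (adjusted p = 9.33e-08).

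The other carriers and transferases moved less. Crat, carnitine acetyltransferase, was 166 to 233 CPM in controls, 130.1 to 159.6 CPM after 6 hours and 239.9 to 277 CPM after 5 days. By log2 fold change it was called lower after 6 hours (-0.43) and higher after 4 days (0.29) and 5 days (0.36). The call at 4 days was lost without RT replicate 2, 4 or 5 (adjusted p 0.0606 to 0.0777), and those at 4 and 5 days with library size only. Slc22a5, the carnitine transporter of the plasma membrane, had 11.8, 4.57, 11.4, 11.7 and 7.72 CPM in controls and 17.2, 20.4, 19.4, 23.4 and 12.4 CPM after 6 hours. Its 6 hour mice were all above the controls (log2 fold change 0.94 ± 0.22 (SE), edgeR adjusted p = 0.00236), and it was not called at any other duration.

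The acyl-CoA dehydrogenases that define the chain length of each round moved little, and the largest changes in this role were decreases of less studied members. Of 9 tested, 0 were called higher and 2 lower after 6 hours (all genes: 21.5% and 21.0%). After 5 days, 2 were called higher and 3 lower (all genes: 20.2% and 18.6%). Acadvl, for very long chains, had 938, 847, 929.6, 818 and 739 CPM in RT mice and 1219.8, 1158, 1354, 1352 and 1235 CPM after 5 days. All 5 day mice were above all controls, with a log2 fold change of 0.54 ± 0.10 (SE) (edgeR adjusted p = 0.000371), after 0.49 ± 0.10 (SE) at 4 days (adjusted p = 0.000806) and no call before. Its exons share 1151 bases, the 3' end included, with Dvl2 on the opposite strand.

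Acadl, for long chains, had 1516, 1552, 1413, 1560.0 and 1531 CPM in controls, 1374, 1261, 1469, 1378 and 1309.8 CPM after 6 hours and 1548, 1764, 2039, 1983 and 1732 CPM after 5 days. The 6 hour mice lay mostly below and the 5 day mice mostly above the controls, but no comparison with RT was called. Acadm, for medium chains, had 1941, 1730.1, 1741, 1644 and 1454 CPM in controls and 1193, 1359, 1681, 1393 and 1199 CPM after 1 day. It was called lower only after 1 day (log2 fold change -0.34 ± 0.11 (SE), edgeR adjusted p = 0.0302), a call lost without cold 1 day replicate 1, 2 or 5 or RT replicate 1, 2 or 3 (adjusted p 0.0536 to 0.0854). Acads, for short chains, had 457, 369.6, 487, 477 and 405 CPM in controls and 506, 403, 516, 435 and 372 CPM after 5 days, with groups that overlapped and no call at any duration.

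Acad12 and Acad10 are tandem neighbors on the minus strand of chromosome 5 (121596775 to 121618938 and 121621026 to 121660514, build GRCm38). Acad12 had 19.3, 17.3, 19.0, 18.7 and 16.7 CPM in RT mice, 9.13, 7.90, 6.93, 11.1 and 4.37 CPM after 6 hours and 7.98, 4.38, 4.85, 5.87 and 4.14 CPM after 1 day. After 5 days it had 5.19, 8.38, 5.81, 10.4 and 8.04 CPM. No cold mouse reached the lowest control, and the reads behind these values were 87 to 115 per RT library and 18 to 43 per 1 day library. Acad12 fell by 1.26 ± 0.19 (SE) on the log2 scale after 6 hours (edgeR adjusted p = 3.29e-05), by 1.74 ± 0.18 (SE) after 1 day (adjusted p = 1.32e-06) and by 1.28 ± 0.18 (SE) after 5 days (adjusted p = 1.68e-05).

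Acad10 had 7.43, 11.4, 12.9, 12.9 and 10.8 CPM in RT mice, 8.34, 6.97, 11.6, 13.5 and 8.01 CPM after 6 hours and 5.75, 5.54, 7.19, 4.08 and 3.45 CPM after 1 day. Controls and 6 hour mice overlapped, and from 1 day on most mice were below every control, all 5 of them after 1, 3 and 4 days. It fell by 1.09 ± 0.22 (SE) on the log2 scale after 1 day (edgeR adjusted p = 0.00092), 1.46 ± 0.22 (SE) after 3 days (adjusted p = 0.000113) and 0.99 ± 0.23 (SE) after 5 days (adjusted p = 0.00281). Acadsb, a dehydrogenase of short branched chains in isoleucine breakdown, had 115, 129, 119, 134 and 109 CPM in controls and 63.1, 82.3, 74.5, 62.9 and 68.4 CPM after 5 days. It was called lower after 2, 3, 4 and 5 days, at log2 fold changes of -0.50, -0.66, -0.77 and -0.81 ± 0.10 (SE) (edgeR adjusted p = 8.55e-06 for the last), and all mice of the last 3 durations were below all controls.

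Acad11 had 69.0, 75.9, 73.6, 51.4 and 52.3 CPM in controls, 50.3, 50.9, 42.9, 44.6 and 37.0 CPM after 6 hours and 62.0, 81.6, 97.8, 100.1 and 93.5 CPM after 5 days. All 6 hour mice were below the controls, and 4 of the 5 day mice were above them. The log2 fold change was -0.54 ± 0.13 (SE) after 6 hours (edgeR adjusted p = 0.00259) and 0.41 ± 0.14 (SE) after 5 days (adjusted p = 0.028). The latter call was lost without cold 5 days replicate 3, 4 or 5 or RT replicate 4 or 5 (adjusted p 0.0544 to 0.0925) and with library size only. Acad9, known for its part in assembling respiratory complex I, had 1.63 to 3.24 CPM in controls and 2.87 to 6.86 CPM after 5 days, from 556 counts in all libraries, and was never called. At this depth, changes of its size could not be told from the spread between mice.

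**Figure D4:**
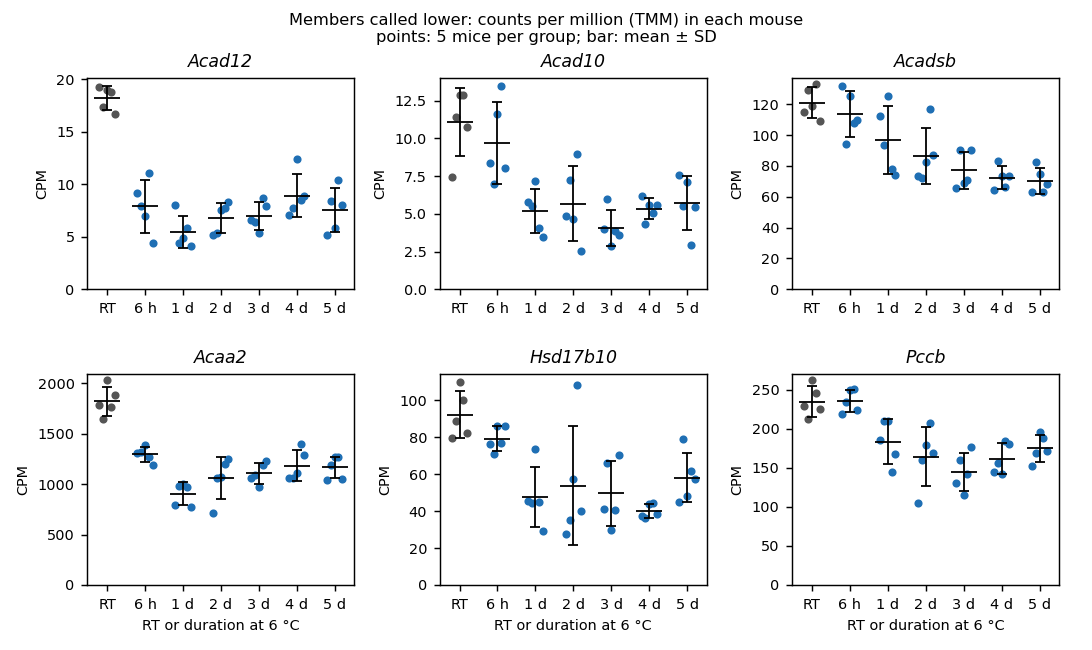
CPM (TMM) of 6 members called lower in cold, by group (RT, room temperature; h, hours; d, days), with 1 point per mouse and the mean ± SD as bars. Acad12 and Acaa2 are below all controls in every cold mouse, Pccb from 1 day and Acadsb from 3 days on. Acad10 and Hsd17b10 overlap with the controls after 6 hours. From 1 day on, single mice after 2 or 5 days keep Acad10, and 1 mouse after 2 days keeps Hsd17b10, in the control range.

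Among the enzymes of the later steps, some members were called higher and others lower after 1, 3, 4 and 5 days. After 6 hours and 2 days, members were called lower only. Of 8 members, 0 were called higher and 4 lower after 6 hours (all genes: 21.5% and 21.0%). After 1 day, 1 was called higher and 5 lower (all genes: 18.9% and 17.8%), and after 5 days, 3 higher and 2 lower (all genes: 20.2% and 18.6%). Hadha, the alpha subunit of the trifunctional protein, which acts on long chains, had 1082, 840.1, 1049, 890.1 and 823 CPM in RT mice and 851, 919.8, 1075, 999.7 and 891 CPM after 6 hours. It had 1176, 1209.9, 1419.6, 1142 and 1068 CPM after 1 day and 1419.7, 1369.9, 1622, 1551 and 1476 CPM after 5 days. The 6 hour mice lay within the control range, and all 5 day mice above it. The log2 fold change was 0.51 ± 0.10 (SE) after 4 days (edgeR adjusted p = 0.000922) and 0.64 ± 0.11 (SE) after 5 days (adjusted p = 0.000121). Smaller log2 fold changes were called after 1 day (0.34) and 3 days (0.32). The call at 1 day was lost without cold 1 day replicate 3 or RT replicate 2, 4 or 5 (adjusted p 0.058 to 0.0648), that at 3 days without cold 3 days replicate 2 or 5 or RT replicate 2, 4 or 5 (adjusted p 0.0635 to 0.0907), and both with library size only.

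Hadhb, the beta subunit of that protein, had 684, 568, 803, 665 and 620.3 CPM in controls and 763, 820.3, 1027, 966 and 759 CPM after 5 days. Controls and 5 day mice overlapped. Hadhb rose by a log2 fold change of 0.35 ± 0.11 (SE) after 4 days (edgeR adjusted p = 0.0174) and 0.35 ± 0.12 (SE) after 5 days (adjusted p = 0.0235). The call at 4 days was lost without RT replicate 2 (adjusted p = 0.0507), that at 5 days without cold 5 days replicate 3 or 4 or RT replicate 2, 4 or 5 (adjusted p 0.0515 to 0.0677), and both with library size only. Within a mouse, the ratio of Hadha to Hadhb was 1.58, 1.48, 1.31, 1.34 and 1.33 in RT mice, 2.10, 1.72, 1.94, 2.35 and 1.70 after 1 day and 1.86, 1.67, 1.58, 1.61 and 1.95 after 5 days. All 1 day ratios were above all control ratios, while the 5 day range overlapped with the control range by its lowest mouse.

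Acaa2, the thiolase that releases acetyl-CoA at the end of a round, went the other way. RT mice had 1788, 1648, 2029, 1769 and 1881 CPM and 6 hour mice 1307, 1323, 1386, 1266 and 1193 CPM. After 1 day it had 790.3, 982, 1006, 975 and 774 CPM, and after 5 days 1046, 1190.1, 1268, 1267 and 1056 CPM. Every cold mouse was below every control, and the 1 day mice had the lowest mean. Acaa2 fell by 0.52 ± 0.09 (SE) on the log2 scale after 6 hours (edgeR adjusted p = 9.64e-05), 1.03 ± 0.11 (SE) after 1 day (adjusted p = 2.02e-06) and 0.67 ± 0.10 (SE) after 5 days (adjusted p = 6.15e-05). The ratio of Hadha to Acaa2, which does not depend on the scaling, was 0.438 to 0.605 in controls, 0.651 to 0.790 after 6 hours, 1.17 to 1.49 after 1 day and 1.15 to 1.40 after 5 days, without overlap between controls and any of these groups.

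Hsd17b10, a hydroxyacyl-CoA dehydrogenase that is also a subunit of mitochondrial RNase P, had 79.9, 88.8, 110.0, 100.3 and 82.1 CPM in RT mice and 45.5, 44.5, 73.9, 45.2 and 29.5 CPM after 1 day. It had 27.8, 35.3, 57.5, 108 and 39.9 CPM after 2 days and 37.3, 36.4, 44.1, 44.2 and 38.7 CPM after 4 days. Replicate 4 of cold 2 days lay at the top of the control range, and the mice after 1 and 4 days were all below the controls. Hsd17b10 fell by 0.96 ± 0.18 (SE) on the log2 scale after 1 day (edgeR adjusted p = 0.00054), 1.22 ± 0.11 (SE) after 4 days (adjusted p = 3.38e-07) and 0.69 ± 0.14 (SE) after 5 days (adjusted p = 0.000779). Its call at 2 days (log2 fold change -0.80) was lost without cold 2 days replicate 1, 2, 3 or 5 or RT replicate 2, 3 or 4 (adjusted p 0.0505 to 0.0995).

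Hadh, the short-chain hydroxyacyl-CoA dehydrogenase, Echs1, the short-chain hydratase, and Eci1, an isomerase for unsaturated chains, were each called lower after 6 hours and 1 day (log2 fold changes in parentheses). Hadh was 981 to 1094 CPM in controls and 650.5 to 751 CPM after 1 day, and it was called lower after 6 hours (-0.52), 1 day (-0.64) and 3 days (-0.29). The last call was lost without cold 3 days replicate 1, 3 or 5 or RT replicate 1, 2 or 4 (adjusted p 0.0531 to 0.0727). Echs1 was 346 to 490.1 CPM in controls and 244 to 365 CPM after 1 day, and it was called lower after 6 hours (-0.30) and 1 day (-0.50). The call at 6 hours was lost without cold 6 hours replicate 1 or 5 or RT replicate 3 or 4 (adjusted p 0.0564 to 0.0757). Eci1 was 453 to 517 CPM in controls and 251 to 298 CPM after 1 day, and it was lower at every duration but the last, from -0.36 after 6 hours to -0.83 after 1 day and -0.43 after 4 days. Decr1, the dienoyl-CoA reductase of unsaturated chains, was 287 to 345 CPM in controls and 437 to 509 CPM after 5 days, and it was higher after 3 days (0.31), 4 days (0.49) and 5 days (0.53). Its call at 3 days was lost without cold 3 days replicate 2 or 5 or RT replicate 3, 4 or 5 (adjusted p 0.0517 to 0.0915) and with library size only.

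In the transfer of electrons to the respiratory chain, 1 of 3 members was called higher and 1 lower after 5 days (all genes: 20.2% and 18.6%). Etfdh, which passes electrons from the flavoprotein to ubiquinone, had 190.3, 195, 189.7, 138 and 143 CPM in RT mice and 239.6, 246, 291, 311 and 286 CPM after 5 days. All 5 day mice were above all controls. Etfdh rose by a log2 fold change of 0.44 ± 0.11 (SE) after 4 days (edgeR adjusted p = 0.00619) and 0.66 ± 0.12 (SE) after 5 days (adjusted p = 0.000296). An earlier call after 6 hours (log2 fold change 0.33) was lost without cold 6 hours replicate 3 or 4 or RT replicate 4 or 5 (adjusted p 0.0533 to 0.1) and with library size only.

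Etfb, the beta subunit of the flavoprotein, had 1092, 974, 998, 1128 and 1128 CPM in controls, 689, 754, 724, 955 and 833 CPM after 1 day and 836, 799.8, 904, 831 and 677 CPM after 5 days. The 1 day and 5 day mice were all below the controls. Etfb fell by 0.45 ± 0.11 (SE) on the log2 scale after 1 day (edgeR adjusted p = 0.00406) and by 0.42 ± 0.10 (SE) after 5 days (adjusted p = 0.00401). A call after 4 days (log2 fold change -0.28) was lost without cold 4 days replicate 1, 2 or 5 or RT replicate 4 or 5 (adjusted p 0.058 to 0.0762). The alpha subunit Etfa was 433 to 516 CPM in controls and 440.2 to 589 CPM after 5 days and was never called. Within a mouse, the ratio of Etfa to Etfb was 0.384 to 0.517 in controls and 0.544 to 0.744 after 5 days. Etfb shares 617 exon bases with the readthrough gene Gm45233 on its own strand, which had 0 counts.

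The propionyl-CoA branch held the largest rise outside activation and a split between subunits. Mcee, methylmalonyl-CoA epimerase, had 126, 99.5, 108, 98.0 and 96.1 CPM in RT mice and 150.2, 129.8, 198, 156 and 136 CPM after 6 hours. After 1 day it had 316, 339, 355, 287 and 288 CPM, and after 5 days 272, 376, 303, 345 and 297 CPM. Every cold mouse was above every control. The log2 fold change was 0.52 ± 0.12 (SE) after 6 hours (edgeR adjusted p = 0.00171), 1.57 ± 0.11 (SE) after 1 day (adjusted p = 2.59e-08), 1.70 ± 0.10 (SE) after 4 days (adjusted p = 4.91e-09) and 1.57 ± 0.11 (SE) after 5 days (adjusted p = 1.11e-08).

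Pcca and Pccb encode the alpha and beta subunits of propionyl-CoA carboxylase, which form 1 complex. Pcca had 63.7, 60.0, 69.6, 58.2 and 58.0 CPM in RT mice, 103, 80.7, 74.9, 126 and 144 CPM after 4 days and 98.7, 137, 137, 169.6 and 123 CPM after 5 days. Pccb had 228, 212, 262, 246 and 225 CPM in RT mice, 131, 159.9, 115, 142 and 176 CPM after 3 days and 152, 169, 195, 189 and 171 CPM after 5 days. Pcca was above, and Pccb below, all controls in every mouse at 4 and at 5 days. For Pcca the log2 fold change was 0.75 ± 0.15 (SE) after 4 days (edgeR adjusted p = 0.000908) and 1.08 ± 0.12 (SE) after 5 days (adjusted p = 2.65e-06). Pccb fell by 0.37 ± 0.11 (SE) on the log2 scale after 1 day (edgeR adjusted p = 0.0161), 0.71 ± 0.11 (SE) after 3 days (adjusted p = 0.00018) and 0.45 ± 0.10 (SE) after 5 days (adjusted p = 0.00178).

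Because a ratio within 1 library does not depend on the scaling, the subunits were also set against each other in each mouse. Pcca to Pccb was 0.279, 0.284, 0.265, 0.237 and 0.258 in RT mice and 0.279, 0.215, 0.303, 0.217 and 0.255 after 6 hours. It was 0.285 to 0.374 after 1 day, 0.382 to 0.535 after 2 days, 0.471 to 0.642 after 3 days and 0.516 to 0.799 after 4 days. After 5 days it was 0.649, 0.812, 0.700, 0.899 and 0.721. The means were 0.264 ± 0.019 (SD, n = 5) in controls and 0.756 ± 0.099 (SD, n = 5) after 5 days, and each group mean from 1 day to 5 days was above that of the duration before it. Controls and 6 hour mice overlapped, and from 1 day on no mouse was as low as the highest control. The 3' end of Pcca shares 241 exon bases with Ggact on the opposite strand.

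**Figure D5:**
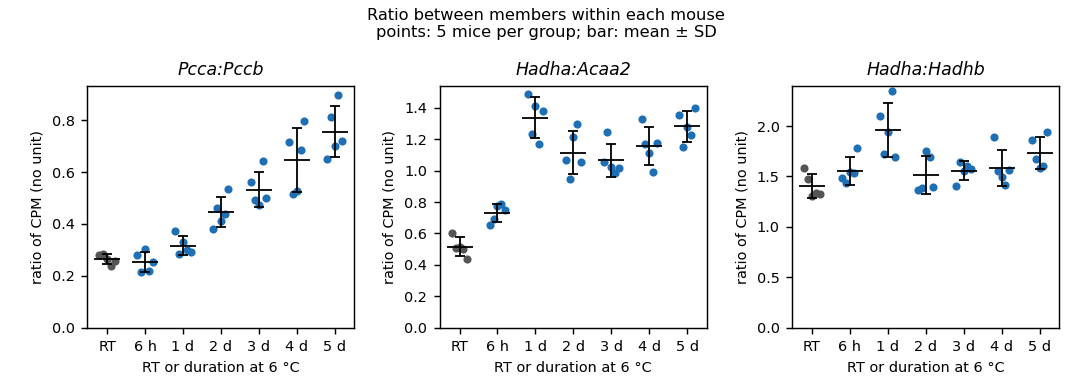
Ratio of CPM between members within each mouse, by group (RT, room temperature; h, hours; d, days), with 1 point per mouse and the mean ± SD as bars. Pcca to Pccb climbs from a mean of 0.254 ± 0.038 after 6 hours to 0.756 ± 0.099 after 5 days, Hadha to Acaa2 is highest after 1 day, and Hadha to Hadhb is above all controls in every mouse only after 1 day.

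Early and late cold were then compared directly, 5 mice after 5 days against 5 after 6 hours. Of the 33 members tested, 18 were called higher after 5 days and 5 lower (all genes: 19.0% and 16.9%), and the values in parentheses are log2 fold changes of 5 days over 6 hours. The carnitine shuttle had 4 of 5 higher and 0 lower, and the later steps 5 of 8 higher and 1 lower. Acsl5 (2.13 ± 0.22 (SE), edgeR adjusted p = 2.19e-07), Acsl3 (1.91 ± 0.20 (SE), adjusted p = 2.2e-07), Cpt2 (1.33 ± 0.11 (SE), adjusted p = 6.1e-09) and Pcca (1.16 ± 0.14 (SE), adjusted p = 1.14e-06) had the largest increases. The 5 members lower after 5 days were Acad10 (-0.76), Acadsb (-0.69), Acsl1 (-0.62), Hsd17b10 (-0.44) and Pccb (-0.42). Acadl (0.42), which differed from RT at no duration, was higher after 5 days than after 6 hours in all 5 mice. The call of Acad10 was lost without cold 5 days replicate 4 or cold 6 hours replicate 3 or 4 (adjusted p 0.0621 to 0.0829). That of Cpt1a (0.75) was lost without cold 6 hours replicate 1 or 3 (adjusted p 0.0592 to 0.0622), and that of Etfdh (0.34) without cold 5 days replicate 4 or cold 6 hours replicate 1 or 5 (adjusted p 0.0538 to 0.0595).

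A further 20 genes of the pathway and its control that are not members were read for comparison, of which 18 were tested (Cpt1c and Acsl6 had too few counts). After 6 hours, 5 were called higher and 6 lower (all genes: 21.5% and 21.0%). After 5 days, 13 were called higher and 1 lower (all genes: 20.2% and 18.6%). Slc25a20, the carrier that takes acylcarnitine across the inner membrane, was higher at all 6 durations, by a log2 fold change of up to 0.72 ± 0.12 (SE) after 5 days (edgeR adjusted p = 0.000131). Nudt19, which degrades coenzyme A, was higher at all durations too, up to 1.25 ± 0.14 (SE) (adjusted p = 1.81e-06). Acot2, a mitochondrial thioesterase that releases free fatty acid, had 24.4, 18.7, 20.7, 17.6 and 11.9 CPM in RT mice and 76.1, 102, 54.5, 136 and 212 CPM after 5 days (log2 fold change 2.62 ± 0.28 (SE), edgeR adjusted p = 1.38e-06). All 5 day mice were above all controls, with a wide spread among them. Peroxisomal Ehhadh was highest after 2 days, at 2.10 ± 0.28 (SE) (edgeR adjusted p = 4.52e-05).

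Acacb, which makes malonyl-CoA at the mitochondrion, had a log2 fold change of 0.83 ± 0.13 (SE) after 5 days (edgeR adjusted p = 5.73e-05). Beside Mcee, the genes Mmaa and Mmab, which prepare the cobalamin of the next enzyme, were each called higher at 4 of the 6 durations. Their log2 fold changes after 5 days were 0.88 ± 0.12 (SE) for Mmaa (edgeR adjusted p = 2.12e-05) and 0.69 ± 0.13 (SE) for Mmab (adjusted p = 0.000563). Mmab was called lower before that, after 6 hours (-0.36), a call lost without cold 6 hours replicate 1, 2 or 5 or RT replicate 2, 3 or 4 (adjusted p 0.0576 to 0.0915). The mutase Mmut was called lower after 6 hours (-0.28) and 1 day (-0.38) and not later, and these calls were lost without cold 6 hours replicate 2, 4 or 5 or RT replicate 1, 3 or 5 (adjusted p 0.0593 to 0.0962) and without cold 1 day replicate 2, 4 or 5 or RT replicate 1 or 3 (adjusted p 0.0537 to 0.0744). Etfrf1, a regulator of the flavoprotein, was lower after 6 hours (log2 fold change -0.59) and higher after 5 days (0.64). The nuclear receptor genes differed: Ppara, the fatty acid receptor, fell by 1.19 ± 0.12 (SE) on the log2 scale after 6 hours (edgeR adjusted p = 5.21e-07) and was called lower at all 6 durations, while Esrra was called higher at all 6, most after 6 hours (0.78 ± 0.10 (SE), adjusted p = 1.08e-05). The call of Ppara after 5 days was lost without cold 5 days replicate 2, 4 or 5 or RT replicate 3, 4 or 5 (adjusted p 0.0511 to 0.0874). Of the 81 calls of these genes in the 7 comparisons, 20 were lost with library size only, 16 in at least 1 fit without 1 mouse, and 0 changed sign.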

How the data were processed

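Counts of 35 3' end RNA-seq libraries, 1 per mouse, were used as the authors deposited them, as 1 table of whole-number counts per gene without normalization, and its 35 columns were matched to mice by duration and replicate number. Per the submitters' processing notes, STAR 2.6.1d and HTSeq 0.11.2 were used with the GRCm38 build. All libraries held between 3846016 and 6047247 counts, which sets the counting error of low genes.

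Each duration was compared with room temperature, and 5 days with 6 hours, in a separate fit with edgeR 4.0.16 (R 4.3.3), using TMM scaling, genes that passed filterByExpr and the quasi-likelihood test, with p-values adjusted by Benjamini-Hochberg over all genes tested and called below 0.05. The SE of a log2 fold change is its size divided by the square root of the F value. CPM used TMM factors over all 35 libraries. For Cpt1b, below the filter, log2 CPM (prior count 2) was compared by exact permutation. Alternatives were RLE size factors, library size only, no filter on counts, DESeq2 1.42.0, all 7 groups in one fit, blocking on replicate number, and fits without 1 mouse. Both count tests were tested on simulated data. Leaving out mice from the summed level was chosen after seeing the data.

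The members, the other gene lists and the tests were chosen with earlier results of these data known. All 34 members are named. Full statistics were given for the 2 members per role with the largest called change and for the main enzymes of each step, and also, by a choice made after their values were seen, for Acsl1, Pccb and Slc22a5 and, at 5 days, Acadsb. Mmut among the other pathway genes, the ratios, the GC box and AGGTCA searches and the Hadhb promoter were also added after values were seen. Promoters are RefSeq windows (GRCm38.p6), and overlaps and gene positions come from GENCODE M21 (GRCm38). Values of other pathway genes were given for those called in at least 4 of the 6 comparisons with room temperature, except 1 that is not reported here.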

Additional observations from a re-analysis of the deposited data

Results flagged for a closer look

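Among 231 groups of 5 values (33 members in 7 groups of mice), 7 held a mouse farther from the others than Dixon's 95% limit. The members were measured in the same mice, so these groups were not independent, and the number has no chance rate to stand beside. Replicate 1 of cold 2 days was low for Slc22a5 (7.26 CPM) and Cpt2 (213 CPM). The others were Acsl3 in replicate 3 of cold 5 days (95.8 CPM), Acsl5 in replicate 2 of cold 3 days (483 CPM), Slc22a5 in replicate 4 of cold 4 days (17.4 CPM) and Hadh in replicate 1 of cold 1 day (751 CPM), all high, and Crat in replicate 5 of cold 6 hours (130.1 CPM), which was low.

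The change from room temperature differed between 5 days and 6 hours of cold for 23 members, by edgeR's direct comparison of both durations (adjusted p below 0.05), with the following log2 differences, 5 days over 6 hours. In activation these were Acsl5 (2.13), Acsl3 (1.91) and Acsl1 (-0.62). In the carnitine shuttle they were Cpt2 (1.33), Mlycd (0.89), Crat (0.79) and Cpt1a (0.75). Among the dehydrogenases they were Acad11 (0.96), Acadl (0.42), Acadvl (0.34), Acadm (0.31), Acadsb (-0.69) and Acad10 (-0.76). In the later steps they were Hadha (0.66), Decr1 (0.57), Hadhb (0.51), Hadh (0.40), Echs1 (0.39) and Hsd17b10 (-0.44). In the last roles they were Etfdh (0.34), Pcca (1.16), Mcee (1.05) and Pccb (-0.42). Both durations share the room temperature mice, which do not enter this comparison.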

How the results depend on the processing

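Of 134 calls of members in the 7 comparisons, 104 were kept under every alternative, 27 were lost under at least 1 of the alternatives that keep all mice, 23 were lost in at least 1 fit without 1 mouse, and 0 changed sign. Library size only lost the most (19), and it gave 16 members lower after 6 hours (8 with TMM), 16 after 1 day (10 with TMM) and 11 after 2 days (7 with TMM), and 10 higher after 5 days (16 with TMM). The summed CPM of the members then differed from room temperature by -2726 at 6 hours (-443 with TMM), -3171 at 1 day (-701), -2196 at 2 days (508), -1802 at 3 days (-113), -357 at 4 days (1393) and -729.6 at 5 days (2085). Across all genes, that scaling gave 1140 higher and 3218 lower at 1 day (2014 and 1901 with TMM), 931 and 2776 at 2 days (1748 and 1565), 1339 and 2430 at 3 days (1982 and 1674) and 1440 and 2670 at 4 days (2140 and 2056). With all 7 groups in one fit, 11 members were higher after 2 days (7 in the separate fit). The cause was not tested. Without 1 mouse in turn, the number higher after 2 days was 6 to 12, and, chosen after seeing the data, the summed CPM with TMM differed from room temperature by -79.4 to 1443 after 2 days and -496 to 457 after 3 days, so that its direction there rested on single mice. The other counts of members stayed within 1.5 times the reported count under every alternative.

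Equal replicate numbers gave no sign of pairing the mice. Deviations from the group mean had a median correlation of -0.008 between libraries with the same number in 2 groups, and of 0.005 between those with other numbers. Of the 105 pairs with the same number, 15 were correlated above 0.1. A replicate block lost 6 of the 134 calls, and moved the count of members most after 3 days, from 9 to 6 higher, and after 1 day, from 10 to 12 lower. Fits without 1 mouse compare 4 mice with 5. Genes below about 10 CPM (Acad12, Acad10, Acad9 and Cpt1b on average) rest on few reads per library.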
